A study of Mus musculus with 4 samples.

Results

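The genes described here are 38 named genes of ribosome biogenesis and RNA polymerase I, the enzyme that transcribes ribosomal RNA. They are given by name and the rule uses no measured value, but the list was drawn up with earlier results of these data known. Of these 37 had a value in the deposited transcript tables, out of 31728 genes with a name, and Noc2l, a nucleolar protein gene, is not analysed here. All 37 passed the filter on low values, and 11973 genes were tested.

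The libraries hold messenger RNA of stem cells from primary squamous cell carcinomas (SCC) of mouse skin. All 4 libraries are labelled as TetO-Hras with LV-rtTA3-TGF-beta reporter, on a background labelled C57BL/6 X FBV. This is an Hras transgene under a tetracycline-responsive promoter, with a lentivirus that supplies its activator and an mCherry reporter of transforming growth factor beta (TGF-β) signalling. Lineage negative cells with integrin α6 and CD44 at the surface were sorted into mCherry negative cells (labelled as lacking TGF-β signalling) and mCherry positive cells (labelled as having it). No group without the transgene, no drug and no age or time point is given by the labels, and all 4 libraries share the transgene and the lentivirus. Each fraction gave 1 library in each of 2 experiments, so n = 2 per fraction. The labels do not tell whether separate animals were used, and p-values therefore describe the spread between these 4 libraries alone. The question of the comparison is which genes differ between tumour stem cells with and without TGF-β signalling.

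Levels are FPKM, which scales fragments to the depth of the library and the length of the transcript and so allows comparison between genes. Aligned bases were not given and were inferred from the largest ratio of coverage to FPKM in each library, at between 3.21 and 3.83 gigabases. Values of a gene are given in the order reporter negative, experiments 1 and 2, then reporter positive, experiments 1 and 2. A difference is the positive minus the negative fraction in log2(FPKM + 1), ± SE from limma. Adjusted p-values are from the same limma fit with Benjamini-Hochberg adjustment over all genes tested. Of the keratinocyte markers, Krt5, Krt14 and Krt15 are not analysed here, and the other 5 of 8 (Trp63, Itga6, Itgb4, Cdh1 and Epcam) summed to 628 and 789.6 FPKM in the negative and 415 and 456 FPKM in the positive libraries. All 8 fibroblast markers had a value and summed to 65.2 and 81.4 against 38.8 and 52.7 FPKM. The 8 leukocyte markers summed to at most 13.2 FPKM in any library, with Cd52 at 0 in all, the 6 endothelial markers to at most 12.8 FPKM, and the 5 melanocyte markers to at most 3.50 FPKM, with Pmel at 0 in all. The keratinocyte, fibroblast, endothelial and melanocyte sums were lower in the positive library of each experiment, and the leukocyte sums higher. Itga6, whose protein was used for sorting, held the largest part of the keratinocyte sum, at 331 and 410 against 181 and 205 FPKM. Trp63, Itgb4 and Epcam were also lower in each experiment, but Cdh1 was higher, at 61.7 and 84.3 against 78.5 and 92.5 FPKM. The part of these markers in the differences below was not tested. In bulk libraries, fewer cells of a type and less RNA per cell cannot be told apart.

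A ribosome is built in the nucleolus. RNA polymerase I, recruited to ribosomal DNA by UBF and the initiation factor encoded by Rrn3, makes a long precursor RNA, which small nucleolar ribonucleoproteins (snoRNPs) methylate and pseudouridylate at chosen bases. A large processome assembled on the precursor folds and cuts it into the small subunit RNA, while other factors build the large subunit. Growing epithelial cells and carcinoma cells spend much of their transcription on this pathway, and many of its genes are known targets of the transcription factor MYC, which TGF-β is known to repress in epithelium.

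None of the 37 ribosome biogenesis genes differed between the fractions past an adjusted p of 0.05, where 5.4% of all genes tested did (2.68% higher and 2.71% lower in reporter positive cells). At an unadjusted p under 0.05 by limma, the one tool run, 1 of the 37 was higher (Nhp2), where 7.58% of all genes were, and 5 were lower (Gar1, Nolc1, Gnl3, Polr1b and Mybbp1a), where 18.3% of all genes were. The smallest adjusted p was 0.0939, that of Gar1. The members were above 0 in every library, with a median level of 42.2, 45.5, 40.3 and 35.1 FPKM. The median of the 37 differences was -0.19, beside -0.18 over all genes tested. By experiment the median was -0.11 in experiment 1 and -0.25 in experiment 2, beside -0.14 and -0.23 over all genes.

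Most of the ribosome genes lay slightly lower in the positive fraction, as most genes did. The difference was below 0 in 28 of 37 (75.7%), beside 68.9% of all genes tested. Both positive libraries lay below both negative ones in 18 of 37 (48.6%), beside 42.7% of all genes, and above them in 2, Nhp2 and Heatr1 (5.41%), beside 15.2%. In both experiments taken alone, 21 of 37 were lower (56.8%), beside 54.3% of all genes, and 5 were higher (13.5%), beside 20.7%. The deposited values carry this shift of the whole distribution. After median-of-ratios scaling of the libraries, which puts the median of all genes at 0.01, the members' median was 0.02, with 15 below and 22 above 0. No direction is therefore given for the group as a whole. The 95% interval of the difference lay within 2-fold either way in 29 of 37 (78.4%), beside 62.8% of all genes.

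**Figure D1:**
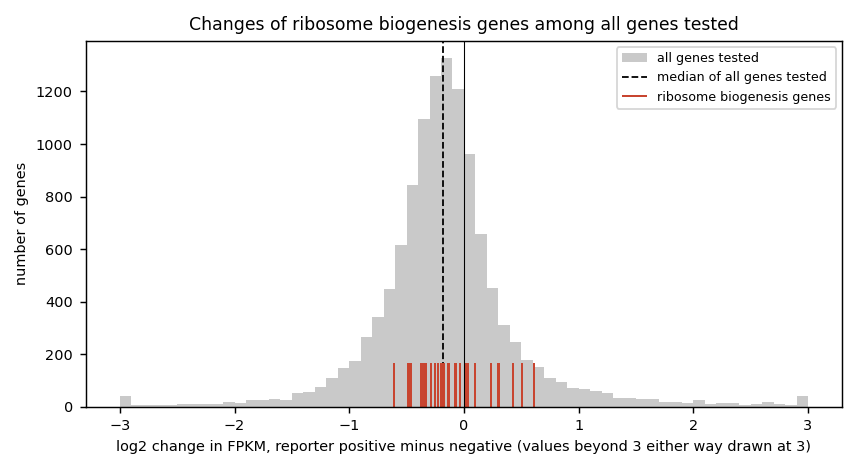
Histogram of the fitted log2 difference in FPKM (positive minus negative) over the 11973 genes tested, in grey, with the 37 ribosome biogenesis genes as red lines and the median of all genes as a dashed line. The red lines run from -0.61 to 0.61 and lie around the dashed line at -0.18.

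**Figure D2:**
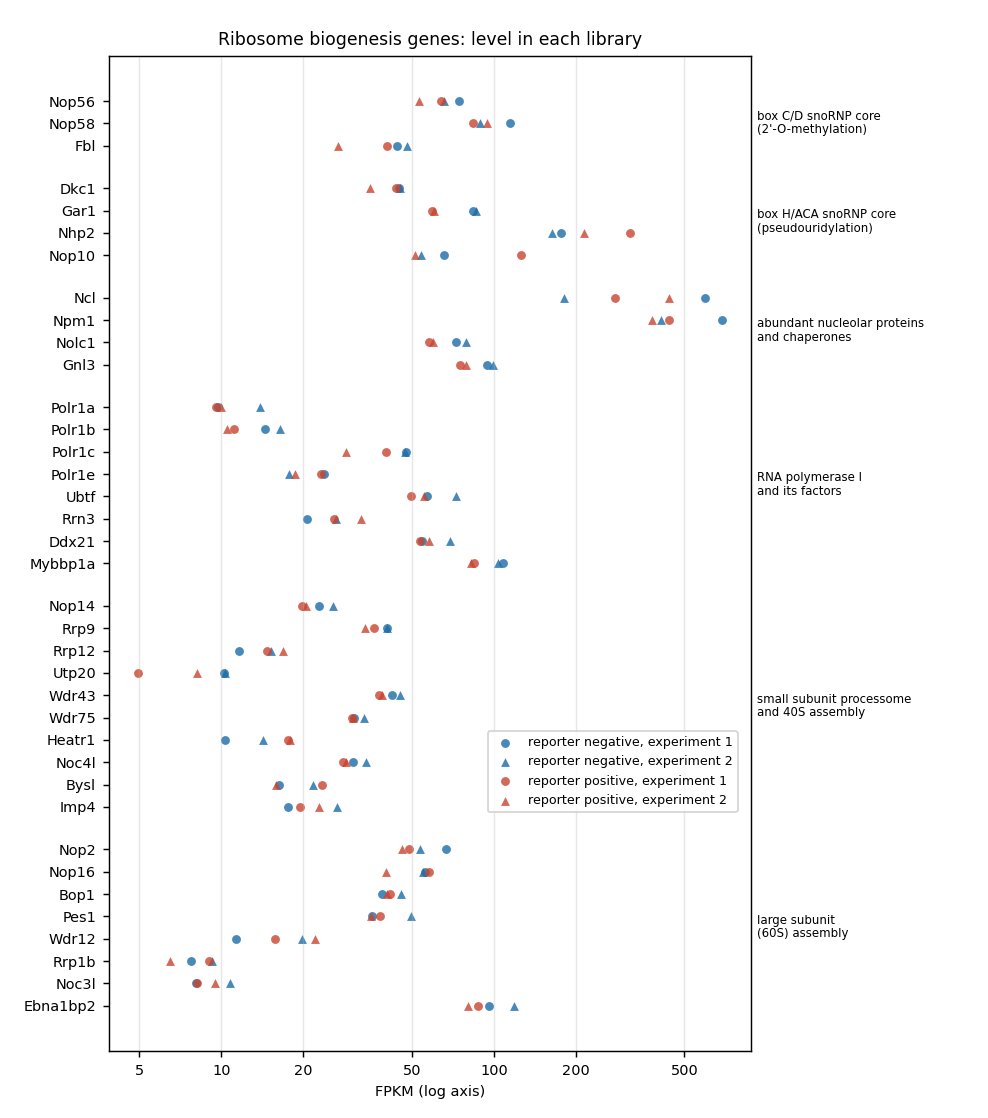
Level of each of the 37 genes in each of the 4 libraries in FPKM on a log axis, grouped by role, with colour for the reporter fraction and shape for the experiment. Single values span from 4.94 FPKM for Utp20 to 685 FPKM for Npm1, and the fractions lie close together beside that span.

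The letters CACGTG, the E-box that MYC with its partner MAX and other factors can bind, were searched in the promoters, since MYC is a known regulator of this pathway. The windows were RefSeq promoters of build GRCm38.p6, 250 bases before to 50 after a start site, matched by symbol for 34 of the 38 genes, and the letters read the same on both strands. At least 1 window held them in 7 of the 34 (20.6%), beside 12.2% of the tested genes with a window and 8.09% of all genes in the table. The 7 were Imp4, Nop2, Rrn3, Mybbp1a, Pes1, Utp20 and Wdr43. In 3 of them a match lay before the start site, and these are printed to show the letters in place, with the match in capitals, 5′ to 3′ on the plus strand, on which all 3 genes lie. They are chr1:34439681-34439740 for Imp4, chr6:125131796-125131855 for Nop2 and chr16:13780624-13780683 for Rrn3, all in GRCm38.p6. Rrn3 held 2 matches before its start site, and only the nearest to that site is printed.
Imp4: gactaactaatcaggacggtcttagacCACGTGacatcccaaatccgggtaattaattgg
Nop2: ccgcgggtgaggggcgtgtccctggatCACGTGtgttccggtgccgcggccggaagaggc
Rrn3: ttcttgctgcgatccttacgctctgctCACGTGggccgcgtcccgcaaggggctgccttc
A match is a description of these letters, not of a bound site. None of the 7 passed the test. Imp4 was at -0.03 ± 0.24, Nop2 at -0.33 ± 0.16 and Rrn3 at 0.31 ± 0.20, with adjusted p of 0.944, 0.272 and 0.387. The other 4 were below 0, Mybbp1a at -0.34, Pes1 at -0.19, Utp20 at -0.61 and Wdr43 at -0.18, so that only Rrn3 was above 0 in FPKM.

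The box C/D snoRNP core methylates ribosomal RNA, with fibrillarin (Fbl) as the methyltransferase and Nop56 and Nop58 as its scaffold. Fbl (ENSMUSG00000046865, mm9 chromosome 7, 28954765 to 28964288) stood at 43.9 and 47.8 FPKM in the negative and 40.6 and 26.8 FPKM in the positive libraries. The positive library of experiment 2 was the low one, and the difference was -0.11 in experiment 1 and -0.81 in experiment 2 (together -0.46 ± 0.23, adjusted p = 0.278). In the measure without transcript length described below for Ncl, the difference of Fbl was -0.41 in experiment 1 and -0.76 in experiment 2 (together -0.59 ± 0.18, adjusted p = 0.128). Nop56 stood at 74.1 and 65.3 against 64.0 and 53.0 FPKM, a difference of -0.25 ± 0.16 (adjusted p = 0.380). For both genes the fractions did not overlap. In FPKM the 2 positive libraries lay further apart than the nearest positive and negative ones. Nop58 stood at 114 and 89.0 against 83.6 and 94.1 FPKM, and its fractions overlapped (-0.18 ± 0.18, adjusted p = 0.560). Without transcript length they did not overlap, with a difference of -0.27 in experiment 1 and -0.21 in experiment 2 (together -0.24 ± 0.12, adjusted p = 0.282). The transcripts of Nop56 and Nop58 are also hosts, with 5 and 4 small nucleolar RNAs lying inside their mm9 spans, but RNAs of that length fall under the 200-base limit used here. Such RNAs also lie inside the spans of Gnl3, Ncl and Wdr43 (3 each) and Dkc1 (1).

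The box H/ACA core turns chosen uridines of ribosomal RNA into pseudouridine, and it is also part of telomerase. Its 4 members went in different directions. Gar1 (ENSMUSG00000028010, chromosome 3, 129527830 to 129534314), a small subunit of the particle, stood at 83.5 and 85.7 FPKM in the negative and 59.3 and 60.4 FPKM in the positive libraries. The 2 libraries of each fraction nearly coincided, and the difference was -0.49 and -0.50 in the 2 experiments (together -0.49 ± 0.12, adjusted p = 0.0939). With the experiments as blocks the adjusted p was 0.0564, also above the threshold. Gar1 had the smallest p of the 37.

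Nhp2 (ENSMUSG00000001056, chromosome 11, 51433237 to 51437216), another small subunit, had the opposite sign, at 176 and 164 against 315 and 213 FPKM (0.61 ± 0.22, adjusted p = 0.178). Both positive libraries lay above both negative ones, with the positive library of experiment 1 the highest. In that library 74.0% of the FPKM of Nhp2 lay on an assembled transcript of 657 bases. In the negative library of experiment 1 all of it lay on the annotated transcript of 1042 bases. With reference transcripts only the sign turned (-0.21), and in the measure without transcript length the difference was 0.29. The pseudouridine synthase Dkc1 (ENSMUSG00000031403, chromosome X, 72341193 to 72355116) stood at 44.7 and 45.4 against 43.6 and 35.1 FPKM (-0.20 ± 0.16, adjusted p = 0.485). Its positive library of experiment 1 lay close to the negative ones, and that of experiment 2 was the low one. The fourth core protein, Nop10, stood at 65.6 and 53.8 against 126 and 51.2 FPKM. Here 1 library, positive of experiment 1, was apart from the other 3 (0.43 ± 0.44, adjusted p = 0.580), and without it the difference was -0.21.

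Nucleolin (Ncl) and nucleophosmin (Npm1) are abundant nucleolar RNA-binding proteins and chaperones, Nolc1 assists snoRNPs, and Gnl3 (nucleostemin) is a nucleolar GTPase known from stem and tumour cells. By mean FPKM Npm1 and Ncl ranked 1 and 2 of the 37. Npm1 (ENSMUSG00000057113, chromosome 11, 33052287 to 33063206) stood at 685 and 409.7 FPKM in the negative and 437 and 379 FPKM in the positive libraries. The negative library of experiment 1 was the high one, and the other 3 lay together (-0.38 ± 0.28, adjusted p = 0.455). Nolc1 (ENSMUSG00000015176, chromosome 19, 46150353 to 46160018) stood at 72.4 and 79.0 against 58.0 and 59.5 FPKM, a difference of -0.36 ± 0.13 (adjusted p = 0.177). Gnl3 (ENSMUSG00000042354, chromosome 14, 31825620 to 31832275) stood at 94.5 and 99.5 against 74.9 and 78.8 FPKM, a difference of -0.33 in each experiment (± 0.13, adjusted p = 0.193). For these 2 genes the gap between the fractions was larger than the gap within either, but it did not pass the test over all genes.

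Ncl (ENSMUSG00000026234, chromosome 1, 88241294 to 88256030) stood at 595 and 180.1 FPKM in the negative and 279 and 439.9 FPKM in the positive libraries, with a difference of -1.09 in experiment 1 and 1.28 in experiment 2. The fractions overlapped and the interval of the difference ran from -1.47 to 1.66, the widest of the 37. The spread came with the transcript models in the files. In the negative library of experiment 2 all FPKM of Ncl lay on the annotated transcript of 8257 exonic bases. In the other libraries 95.4%, 57.2% and 96.5% (in the order negative of experiment 1, positive of experiment 1, positive of experiment 2) lay on transcripts assembled from the reads, the 2 most abundant of which had 2179 and 2563 bases. FPKM divides by that length, so the same fragments give a higher FPKM on a shorter model.

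A measure without that division was therefore added after the values were seen. It is called FPM here and is FPKM without the length. It gives the bases aligned on a gene (coverage and length of its transcripts) as a share of those inferred for the library. It compares libraries for 1 gene, not genes with each other. By FPM, Ncl stood at 1485 and 1449 in the negative and 1102 and 1069 in the positive libraries. The 2 libraries of a fraction then lay close together, with the positive ones lower (-0.43 ± 0.12, adjusted p = 0.113, or 0.0532 when blocked by experiment). On this measure Ncl had the smallest p of the 37, and the sign of its difference was the reverse of that in FPKM.

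**Figure D3:**
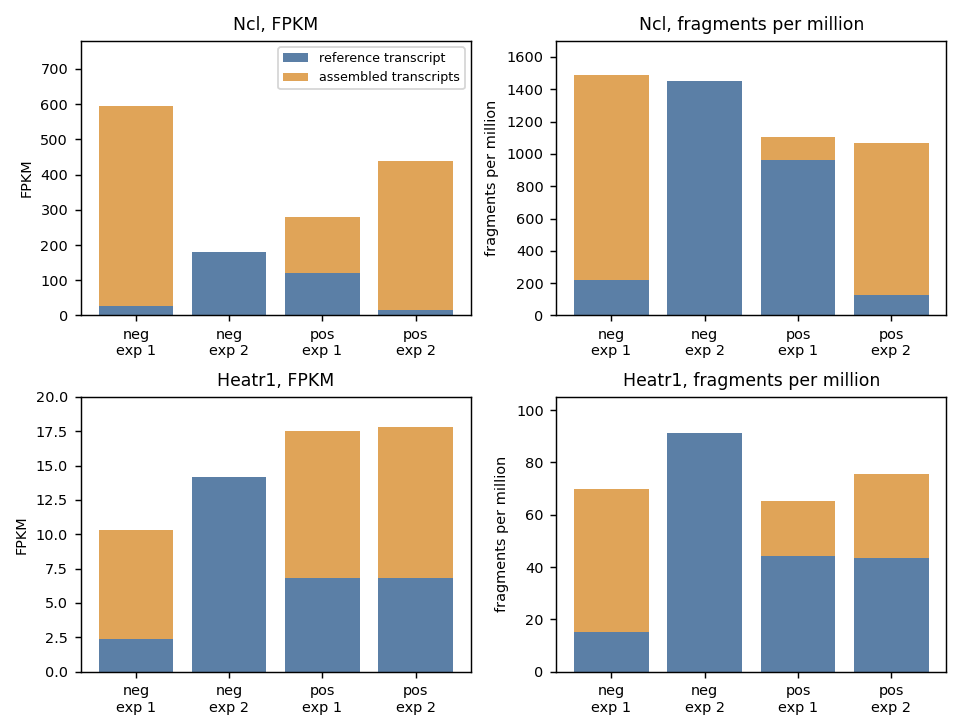
Bars give the level of Ncl (top) and Heatr1 (bottom) in each library, in FPKM (left) and FPM (right), split into the annotated reference transcript and transcripts assembled from the reads. Ncl ranges from 180.1 to 595 FPKM but from 1069 to 1485 FPM, and Heatr1 is higher in the positive libraries in FPKM only.

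RNA polymerase I is represented by its catalytic subunits Polr1a and Polr1b, by Polr1c, which it shares with RNA polymerase III, and by Polr1e. Polr1b (ENSMUSG00000027395, chromosome 2, 128926731 to 128952330) stood at 14.5 and 16.4 FPKM in the negative and 11.1 and 10.5 FPKM in the positive libraries (-0.48 ± 0.16, adjusted p = 0.155). Polr1c (ENSMUSG00000067148, chromosome 17, 46380869 to 46385003) stood at 47.7 and 47.0 against 40.3 and 28.5 FPKM (-0.47 ± 0.20, adjusted p = 0.224). The fractions did not overlap for either gene, and the positive library of experiment 2 was the lowest for both. The largest subunit, Polr1a, stood at 9.72 and 13.8 against 9.55 and 9.96 FPKM. Here the negative library of experiment 2 was alone above the rest (-0.23 ± 0.22, adjusted p = 0.553), and without it the difference was 0.00. Polr1e was level between the fractions, at 23.8 and 17.7 against 23.2 and 18.7 FPKM, and the interval of its difference ran from -0.53 to 0.57.

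The factors that load polymerase I on ribosomal DNA differed in sign. Ubtf (ENSMUSG00000020923, chromosome 11, 102165874 to 102181056), which encodes UBF, stood at 56.8 and 72.7 against 49.8 and 55.2 FPKM (-0.29 ± 0.17, adjusted p = 0.356). Rrn3 (ENSMUSG00000022682, chromosome 16, 13780792 to 13814933), which makes the polymerase competent to initiate, stood at 20.5 and 26.2 against 25.9 and 32.4 FPKM, a difference of 0.32 in experiment 1 and 0.30 in experiment 2 (together 0.31 ± 0.20, adjusted p = 0.387). Each experiment put Rrn3 higher in the positive cells, but the step between experiments was of the same size, so the fractions overlapped. Mybbp1a, a nucleolar MYB-binding protein, stood at 108 and 104 against 84.6 and 82.6 FPKM (-0.34 ± 0.13, adjusted p = 0.182), with no overlap. The RNA helicase gene Ddx21 stood at 54.5 and 68.9 against 53.5 and 57.6 FPKM (-0.14 ± 0.17, adjusted p = 0.647), and its negative library of experiment 2 was alone at the top.

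The small subunit processome contributed 10 genes with a median difference of -0.13. Utp20, a very large scaffold protein of the processome, had the lowest difference of the 37, at 10.2 and 10.3 FPKM in the negative and 4.94 and 8.14 FPKM in the positive libraries (-0.61 ± 0.26, adjusted p = 0.222). The positive library of experiment 1 was the low one, and the difference was -0.92 there and -0.30 in experiment 2. By FPM, the measure without transcript length described above, Utp20 stood at 55.4 and 88.9 against 42.8 and 51.3. The negative libraries were then apart, and the experiments changed order, at -0.36 and -0.78 (together -0.57 ± 0.27, adjusted p = 0.251). Nop14, Rrp9 (which binds the U3 small nucleolar RNA), Wdr43, Wdr75 and Noc4l also had both positive libraries below both negative ones, by small steps. Their differences ran from -0.08 for Wdr75 to -0.26 for Nop14, with adjusted p from 0.336 to 0.754. Rrp9 is an example, at 40.4 and 40.4 against 36.2 and 33.8 FPKM, where the spread within a fraction was small and so was the gap. Rrp12 stood at 11.6 and 15.1 against 14.7 and 16.8 FPKM (0.23 ± 0.20, adjusted p = 0.50), higher in each experiment with overlapping fractions. Bysl, a factor of late small subunit maturation, had differences of 0.50 in experiment 1 and -0.43 in experiment 2, at 16.3 and 21.8 against 23.4 and 15.9 FPKM. Imp4, a partner of the U3 particle whose promoter stretch is printed above, stood at 17.5 and 26.6 against 19.4 and 22.9 FPKM, so that its 2 negative libraries bracketed the positive ones.

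Heatr1 (ENSMUSG00000050244, chromosome 13, 12487665 to 12530944), a processome protein that is also needed for polymerase I transcription, stood at 10.3 and 14.2 FPKM in the negative and 17.5 and 17.8 FPKM in the positive libraries (0.51 ± 0.20, adjusted p = 0.196). Both positive libraries lay above both negative ones in FPKM. By FPM they stood at 69.7 and 91.3 against 65.1 and 75.5, with the fractions overlapping and the sign turned (-0.18 ± 0.19, adjusted p = 0.580). In the positive libraries 61.0% and 61.9% of its FPKM lay on assembled transcripts, most of it on short ones of 2005 and 2084 bases beside the annotated 6537. In the negative library of experiment 1 77.1% lay on an assembled transcript of 6975 bases, and in that of experiment 2 none. The direction of Heatr1 therefore depends on the measure.

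Of the large subunit factors 8 had a value, with a median of -0.16. Ebna1bp2 (ENSMUSG00000028729, chromosome 4, 118293404 to 118300381) stood at 95.8 and 119 against 87.7 and 80.6 FPKM (-0.34 ± 0.16, adjusted p = 0.266). Nop2, a methyltransferase of large subunit RNA, stood at 66.9 and 53.6 against 48.7 and 46.0 FPKM, without overlap. Its FPM stood at 121 and 138 against 125 and 119, with overlap and a difference of -0.08 ± 0.14, and only the negative library of experiment 1 held part of it (42.4%) on an assembled transcript.

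Pes1, Bop1 and Wdr12 encode the 3 proteins of the PeBoW complex, which acts in large subunit maturation. Bop1 stood at 38.7 and 45.5 against 41.4 and 40.5 FPKM (-0.03 ± 0.15, adjusted p = 0.908), with an interval from -0.41 to 0.35. Pes1 stood at 35.6 and 49.7 FPKM in the negative libraries, and at 35.5 FPKM in the positive library of experiment 2, with that of experiment 1 between the negative ones (-0.19 ± 0.20, adjusted p = 0.593). Wdr12 was higher in experiment 2 than in experiment 1 in both fractions, at 11.3 and 19.7 FPKM in the negative one, and the positive library of experiment 1 stood at 15.7 FPKM, between these (0.30 ± 0.31, adjusted p = 0.597). On the FPM scale the difference of Wdr12 was -0.01 ± 0.16, which leaves the 3 PeBoW genes between -0.13 and -0.01 on that measure. Nop16, Rrp1b and Noc3l lay between -0.20 and -0.07 in FPKM, each with overlapping fractions.

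The 2 measures gave differences within 0.1 of each other for 29 of the 37 genes. They were more than 0.2 apart for 6, Ncl, Heatr1, Nop10, Nhp2, Wdr12 and Nop2, and of opposite sign for Ncl, Heatr1 and Wdr12. For Nhp2 the difference was 0.29 ± 0.18 by FPM (180.1 and 151 against 224 and 181), and for Nop10 0.05 ± 0.23 (71.2 and 58.6 against 80.0 and 56.0). Nhp2 kept its order with a smaller gap, and the high FPKM of Nop10 in 1 library came with a short assembled transcript of 348 bases beside the annotated 1109. On this measure 31 of 37 genes were below 0 (83.8%), beside 70.5% of all genes, and both positive libraries lay below both negative ones in 22 (59.5%), beside 44.8%, and above them in 1, Nhp2 (2.7%), beside 15.0%. Fractions that overlapped in FPKM lay apart by FPM, positive lower, for 5 genes, Nop58, Ncl, Nop16, Pes1 and Rrp1b, and the reverse held for Nop2 and Heatr1. The members' median was -0.20 and that of all genes -0.20. In both experiments taken alone 26 were lower (70.3%), beside 56.8% of all genes, and 4 higher (10.8%), beside 20.1%. No member passed the adjusted threshold by FPM either, where 4.64% of all genes did (2.5% higher and 2.14% lower). When the fit was blocked by experiment, 0 passed by either measure, beside 11.9% of all genes in FPKM and 13.2% by FPM. At an unadjusted p under 0.05 by limma 5 were lower (Fbl, Gar1, Ncl, Nolc1 and Gnl3), beside 19.5% of all genes, and 0 higher, beside 7.66%. The 95% interval lay within 2-fold either way in 34 of 37 (91.9%), beside 56.9% of the 12563 genes tested by FPM. No share over genes of like level was computed. The median log2 gap between the 2 negative libraries was 0.23 over the members in FPKM and 0.18 by FPM, and between the 2 positive libraries 0.17 and 0.11.

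**Figure D4:**
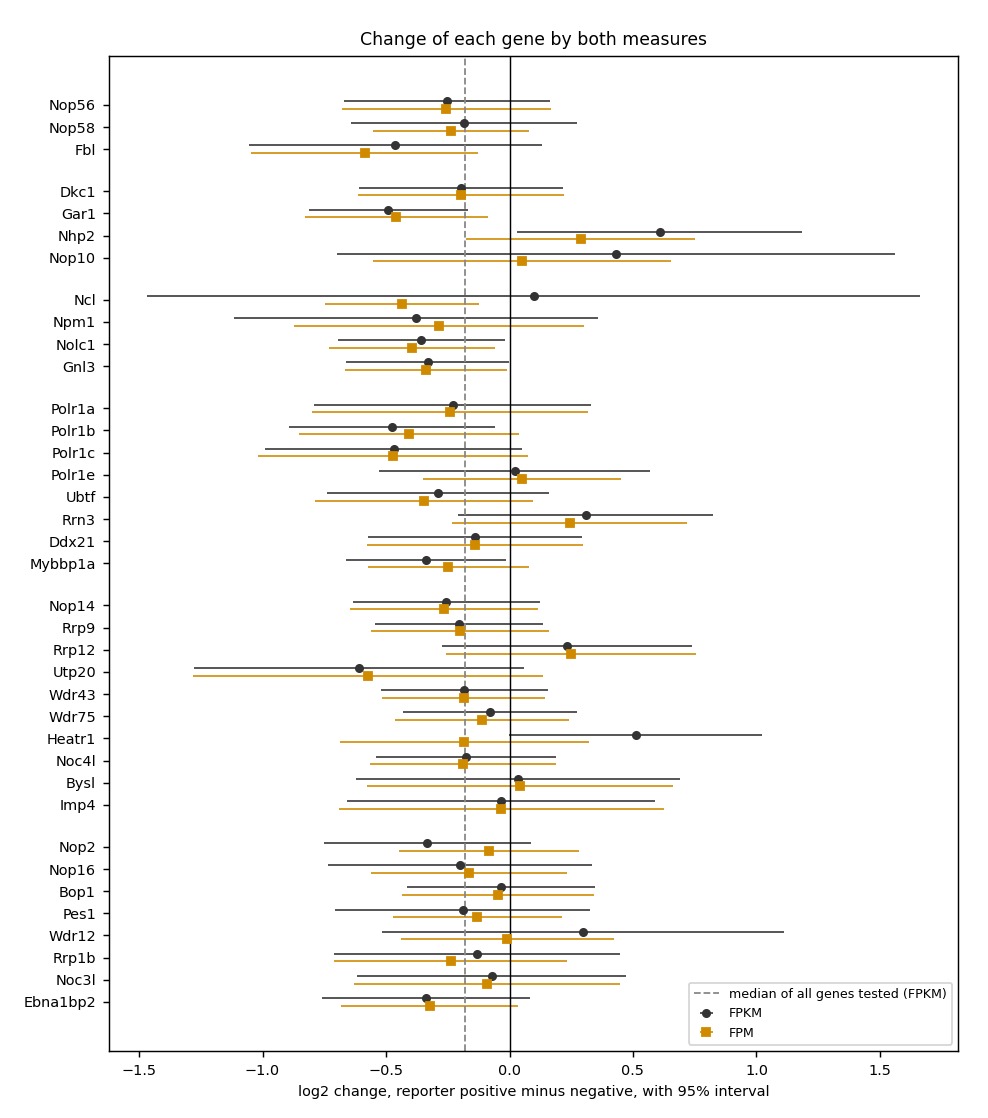
Fitted log2 difference (positive minus negative) of each of the 37 genes with its 95% interval from limma, in FPKM (black circles) and FPM (orange squares), with the median of all genes tested as a dashed line. The points of both measures coincide for most genes and part for Ncl, Heatr1, Nop10, Nhp2, Wdr12 and Nop2, and the interval of Ncl shrinks most.

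Across all 16 settings tried (listed in the closing section), 0 of the 37 genes passed, and the smallest adjusted p of any member ranged from 0.0532 to 0.280 over the settings. With 1 library left out, the number of genes passing over the whole table was also small. It was 191 without the negative library of experiment 1, 3 without that of experiment 2, 86 without the positive library of experiment 1 and 52 without that of experiment 2, so that the count of 646 rests on all 4. The sign was below 0 in every setting for 12 genes, Fbl, Gar1, Gnl3, Mybbp1a, Nolc1, Nop14, Nop56, Npm1, Polr1b, Polr1c, Ubtf and Utp20. It was above 0 in every setting for 2, Rrn3 and Rrp12, and changed in at least 1 setting for the other 23. The share of all genes that kept a sign was not computed, and the settings reuse the same 4 libraries. In the main FPKM fit 68.9% of all genes were below 0, so these counts give no direction for the members as a group.

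The wider pathway was read from lists of genes outside the 38. Among 15 other polymerase I subunits and ribosomal DNA factors 0 passed by limma (unadjusted p under 0.05: 1 higher, 0 lower), with a median of -0.12. Polr1d, shared with polymerase III, had the smallest p of that list, at 111 and 93.9 against 243 and 169 FPKM (0.98 ± 0.22, adjusted p = 0.0787, or 0.0181 when blocked by experiment). Both its positive libraries lay above both negative ones, on the opposite side from Polr1b and Polr1c. The difference was 0.80 by FPM and 0.51 with reference transcripts only (adjusted p = 0.314). Of 45 other small subunit factors 0 passed by limma (median -0.13; unadjusted p under 0.05: 0 higher, 2 lower), and of 49 other large subunit factors 0 passed (median -0.16; 2 higher, 4 lower). With blocks 1 large subunit factor passed higher, Eif6, which keeps free large subunits from joining (131 and 149 against 218 and 205 FPKM, adjusted p = 0.0469, but 0.0524 by FPM), and 1 lower, Nop53 (111 and 121 against 69.8 and 69.3 FPKM, adjusted p = 0.0278). The 10 RNA polymerase III subunits had a median of -0.05, and 0 passed by limma without blocks (unadjusted: 1 higher, 0 lower). With blocks 1 of them passed higher, Polr3g (0.99 ± 0.25, adjusted p = 0.0235 with and 0.0926 without blocks). Polr3g had both positive libraries above both negative ones, and it also passed with blocks by FPM (difference 1.02). Of 18 processing nucleases and exosome subunits 0 passed by limma (unadjusted: 0 higher, 3 lower, beside 7.58% and 18.3% of all genes), with a median of -0.32 beside -0.18, and 15 were lower in both experiments, beside 54.3% of all genes.

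The list called snoRNP assembly factors holds proteins that put the box C/D and box H/ACA particles together, and also Tcof1, described below. Its genes were below 0 without exception in both measures. All 11 had both positive libraries below both negative ones in FPKM (beside 42.7% of all genes), with a median of -0.46 and a range from -1.03 to -0.11. By limma 0 passed (unadjusted p under 0.05: 0 higher, 5 lower, beside 7.58% and 18.3% of all genes). After median-of-ratios scaling the median was -0.25. Tcof1, the treacle protein of ribosomal DNA transcription and rRNA methylation, stood at 18.6 and 23.3 FPKM in the negative and 10.3 and 9.15 FPKM in the positive libraries (-1.03 ± 0.18). Its adjusted p was 0.0507 without and 0.0355 with a block for the experiment, and by FPM it passed at 0.0484. Pih1d1, a subunit of the R2TP chaperone, stood at 40.3 and 39.9 against 24.2 and 23.7 FPKM (-0.72 ± 0.13, adjusted p = 0.0510, and 0.0338 with blocks). The ATPase Ruvbl1 of the same chaperone stood at 14.5 and 13.8 against 8.37 and 7.76 FPKM (-0.74 ± 0.16, adjusted p = 0.0711, and 0.0497 with blocks). With a minimum of 5 FPKM, Tcof1 (adjusted p = 0.0444) and Pih1d1 (0.0468) passed without blocks, and with genes listed at 0 left out all 3 did (0.0218, 0.0311 and 0.0471). These calls turn on the block, the filter or the measure, and with any 1 library left out 0 of the 11 passed.

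Among 9 tested genes of the MYC network 2 passed, both higher, beside 2.68% of all genes higher. With reference transcripts only, or with no filter on low values, 0 passed. When blocked by experiment 2 passed higher and 3 lower, beside 11.9% of all genes in either direction. Mxd1, a MAX partner that represses where MYC activates, rose from 2.92 and 2.79 to 10.8 and 16.8 FPKM (1.91 ± 0.26, adjusted p = 0.0310). Mlx, a MAX-like partner of the MXD proteins, rose from 22.5 and 25.3 to 42.7 and 41.4 FPKM (0.79 ± 0.14, adjusted p = 0.0498), and by FPM its adjusted p was 0.0565. Myc itself stood at 65.3 and 58.0 FPKM in the negative and 41.4 and 32.5 FPKM in the positive libraries (-0.73 ± 0.17, adjusted p = 0.0857, or 0.0317 when blocked by experiment). Both positive libraries lay below both negative ones for Myc. After median-of-ratios scaling its difference was -0.52 in FPKM (limma adjusted p = 0.207) and -0.53 by FPM (0.195). The other 2 that passed lower with blocks were Mycl, a MYC family member (-1.10, adjusted p = 0.0293 with and 0.119 without blocks), and Mxd4, a repressor of the same family as Mxd1 (-0.92, adjusted p = 0.0376 with and 0.216 without blocks). With any 1 of the 4 libraries left out, 0 of the 9 genes passed (Mxd1 at adjusted p of 0.0894 to 0.163).

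Genes of DNA replication and of keratinocyte differentiation, tested in the same libraries, had larger medians. Of 26 DNA replication genes 8 fell, beside 2.71% of all genes. Their median was -0.83 and all 26 were below 0, beside 68.9% of all genes. With reference transcripts only 0 of 25 passed, and with no filter on low values 0 of 26, where 95 and 4 of all genes did. With blocks 14 of the 26 passed lower, and with genes listed at 0 left out 17. With median-of-ratios scaling 2 of the 26 passed (median -0.63), and with any 1 library left out 0. The uracil glycosylase Ung fell from 17.2 and 16.8 to 5.63 and 4.24 FPKM (-1.61 ± 0.19, adjusted p = 0.0252), and the replication clamp Pcna from 136 and 139 to 74.7 and 67.3 FPKM (-0.95 ± 0.13, adjusted p = 0.0336). Of 16 keratinocyte differentiation genes 10 rose, beside 2.68% of all genes, with a median of 2.56. The 5 that did not pass were Sprr2d (5.95), Cdsn (2.45), Dsg1a (0.41), Lor (0.10) and Krt10 (-0.17). The remaining gene, Dsc1, was called lower, with a listed 0 in both positive libraries and 4.57 and 6.41 FPKM in the negative ones. By FPM it was lower too (-4.60, limma adjusted p = 0.0111). Sprr2d is listed at 0 in the negative library of experiment 1. Polr2l, a subunit shared by all 3 nuclear RNA polymerases, is also listed at 0 in 1 library. Whether a listed 0 is an absence or a failed estimate was not tested. Of the keratinocyte differentiation genes, 2 of 15 rose with reference transcripts only and 0 of 17 with no filter on low values. With blocks 11 of 16 rose, and with genes listed at 0 left out 11 of 14. With 1 library left out 9 rose without the negative library of experiment 1, 1 without that of experiment 2, 3 without the positive library of experiment 1 and 0 without that of experiment 2. The transglutaminase Tgm1 rose from 10.5 and 8.44 to 68.2 and 75.0 FPKM (2.80 ± 0.17, adjusted p = 0.00736). Their part in the small differences of the ribosome genes was not tested.

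**Figure D5:**
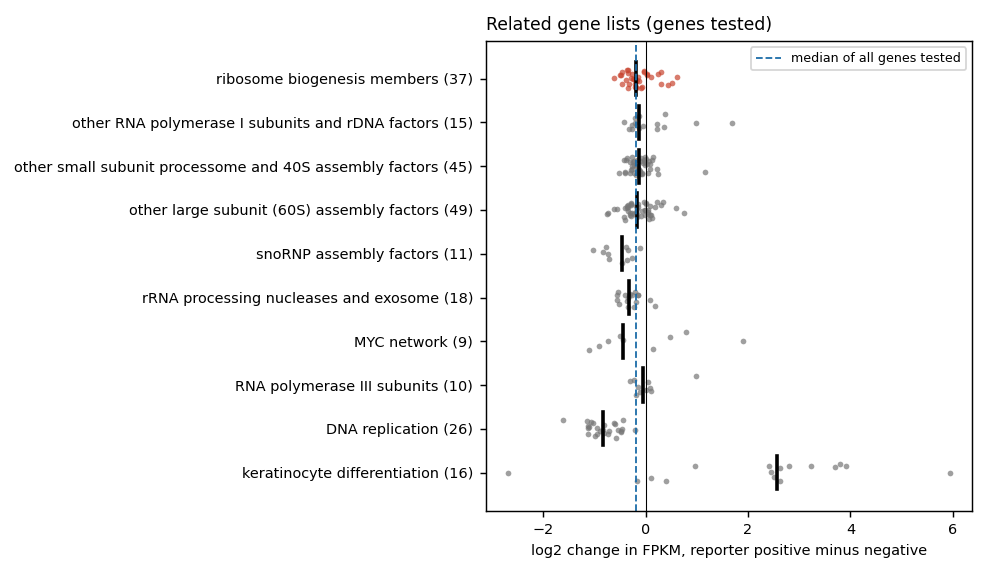
Each point is the fitted log2 difference in FPKM (positive minus negative) of 1 tested gene, by list, with the number tested in brackets, a black bar at the list's median and a dashed line at the median of all genes. The 37 ribosome biogenesis genes in red lie around the dashed line, with a median of -0.19, beside -0.46 for snoRNP assembly factors, -0.83 for DNA replication and 2.56 for keratinocyte differentiation.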

How the data were processed

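RNA of 4 libraries was analysed, 2 reporter negative and 2 reporter positive, grouped by their titles. The authors used TopHat for alignment and Cufflinks for transcript abundance on mm9, per the submitters' processing notes. Versions and annotation release: not given in the sources used here. All deposited files give an FPKM value, an interval and a coverage for each transcript, per the file headers. No read counts are given, so no count model was used.

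Transcripts were named by Ensembl identifier through GENCODE M21 (names only, 84047 of 96734 reference transcripts) or by the gene identifier in the files (5138). Remaining and assembled transcripts were given to the gene with at least 50% of their length in its exons, on the same strand where they had one. Transcripts under 200 exonic bases were left out, with 95.1% to 98.9% of all FPKM. FPKM was summed per gene (Python 3.11.15, pandas 2.3.3). The counting interval of the members reached, from its centre, a median of 4.76% to 5.58% of the value per library. The authors' counting is not stated to use strand, and exons of genes on the opposite strand overlap Bysl over 9.16% and other members over at most 5.27% of their exonic length.

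Genes reaching 1 FPKM in 2 libraries or more entered limma 3.58.1 (R 4.3.3, eBayes with trend) on log2(FPKM + 1), two-sided, with Benjamini-Hochberg adjustment at 0.05. This scale understates differences of low genes. For this limma fit, the rates of false and missed calls are not given here. No other tool was run. Titles number the experiments, and deviations from the fraction means of same-numbered libraries correlated with r 0.31 over genes. Alternatives were the pseudocount, the filter, the scaling, reference transcripts only, zeros left out, the experiment as a block and each library left out. FPM, the coverage times length of a gene's transcripts over the library's inferred aligned bases, was an alternative added after the values were seen. Its main fit took log2(FPM + 1) of the 12563 genes reaching 1 FPM in 2 libraries or more. Those bases are the largest ratio of coverage to FPKM over a library's transcripts above 1 FPKM. Every member is named or counted, as are up to 4 genes of each related list with the smallest p, and Myc. The members and lists were chosen with earlier results of these data known. Promoters are RefSeq's (GRCm38.p6), and a protein table was not used here.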

Additional observations from a re-analysis of the deposited data

How the results depend on the processing

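With 2 libraries per fraction, missing the threshold does not show that a member is alike in both, and a direction given for a gene holds for the settings named. In all 15 alternatives (11 planned and 4 with FPM added after the values were seen) 0 members passed. Of 555 recomputed member differences, 495 kept their sign and 60 did not, in 23 members, and the cause was not tested.

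With median-of-ratios scaling 424 genes were higher and 200 lower, the members' median was 0.021, and 13 members turned sign, Bop1 0.18, Ddx21 0.074, Dkc1 0.015, Imp4 0.17, Noc3l 0.12, Noc4l 0.034, Nop16 0.013, Nop58 0.030, Pes1 0.021, Rrp1b 0.060, Rrp9 0.0067, Wdr43 0.029 and Wdr75 0.13. With reference transcripts only, 54 genes were higher and 41 lower, and 7 members turned, Ebna1bp2 0.14, Ncl -0.69, Nhp2 -0.21, Nop10 -0.23, Nop16 0.25, Nop2 0.057 and Wdr12 -0.22. By FPM 3 turned, Heatr1 -0.18, Ncl -0.43 and Wdr12 -0.0085, with the same values when genes listed at 0 were left out or the experiment was a block. By FPM with median-of-ratios scaling 549 genes were higher, the members' median was 0.035, and 13 turned, Bop1 0.19, Ddx21 0.093, Dkc1 0.035, Imp4 0.20, Ncl -0.20, Noc3l 0.14, Noc4l 0.043, Nop16 0.068, Nop2 0.15, Pes1 0.10, Rrp9 0.030, Wdr43 0.047 and Wdr75 0.12.

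With no filter on low values 3 genes were higher and 1 lower, over 20039 tested. With genes listed at 0 left out 782 genes were lower, and 756 by FPM. With the experiment as a replicate block 533 genes were higher and 889 lower, and by FPM 595 and 1067, and this pairing by experiment changed no member's call. With 1 library left out, 2 to 130 genes were higher and 1 to 61 lower, and the lone library of a fraction was taken to vary like the others. Over those 4 fits the members that turned ranged as follows, Bop1 -0.15 to 0.081, Bysl -0.23 to 0.30, Ddx21 -0.31 to 0.028, Imp4 -0.32 to 0.26, Ncl -0.76 to 0.96, Noc3l -0.26 to 0.11, Nop10 -0.21 to 1.07, Nop16 -0.46 to 0.057, Pes1 -0.43 to 0.045, Polr1a -0.46 to 0.0046, Polr1e -0.18 to 0.22, Rrp1b -0.34 to 0.078 and Wdr12 -0.077 to 0.67.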
